A study of Mus musculus with 6 samples.

Results

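A set of 10 S100 genes was followed in whole mouse colon: S100a8 and S100a9, which encode the subunits of calprotectin, and S100a1, S100a4, S100a6, S100a10, S100a11, S100a13, S100a14 and S100a16, which are made mainly by epithelial and stromal cells. They were taken by symbol from 30330 genes with a value, and all 10 were found. The set was chosen by the knockout against wild-type difference in the TPM of S100a8 and S100a9 in these same libraries, set beside the rest of the family, so every genotype difference of a member below is a description and carries no test. Wild-type mice (3 libraries, each from 1 colon) were compared with mice labelled Tnfrsf1a-/- (3 libraries), a knockout of TNFR1 (tumour necrosis factor receptor 1), the main signalling receptor for the cytokine TNF. All animals were males of 12 weeks per the design text, the labels give C57Bl/6J for both groups, and no treatment is named. The deletion is not restricted to a cell type by the labels, the sources used here do not say which part of the gene was removed, and whether the groups were littermates is not stated, so any difference of strain or housing between them cannot be told apart from genotype. Values are TPM (transcript abundance as a share of the library), which are corrected for transcript length and sum to the same total in each library, so levels can be set side by side between genes and the files do not give the reads behind a value (the design text gives an average of 30M reads per sample). In bulk tissue, fewer cells of a type and less RNA per cell cannot be told apart.

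S100 proteins are small calcium-binding proteins of the EF-hand type that mostly work as dimers. S100A8 and S100A9 pair as calprotectin, which withholds zinc and manganese from microbes and, once released, can act on Toll-like receptor 4. Calprotectin is abundant in neutrophils and is induced in inflamed epithelium, and its faecal level is a clinical marker of gut inflammation. Most other members bind partners inside the cell: S100A10 pairs with annexin A2, S100A11 with annexin A1, and S100A4 with non-muscle myosin.

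The labels were checked first. The principal Tnfrsf1a transcript ENSMUST00000032491 was at 67.6, 39.9 and 59.1 TPM in wild-type replicates 1, 2 and 3 and at 23.5, 20.4 and 25.6 TPM in the knockout replicates, so the groups did not overlap. Another transcript, ENSMUST00000125880, was at 0.89 to 1.2 TPM in the wild-type and 12.4 to 18 TPM in the knockout libraries. Summed over its transcripts, Tnfrsf1a was at 71.2, 44.1 and 63 TPM in the wild-type mice and 49.2, 36.5 and 46.9 TPM in the knockouts, which overlap (log2 fold change −0.41 ± 0.22 SE; limma, adjusted p = 1). Colon identity was plain in every library, with the colonocyte lectin Lgals4 and the keratin Krt8 among the listed epithelial markers, whose summed level was 12046 to 16819 TPM. Markers of squamous epithelium and skeletal muscle were also present, at 540.7 to 2062 and 224.2 to 3812 TPM in sum. Wild-type replicate 2 stood apart: transcripts without a gene held 27.4% of its TPM, against 1.86 to 7.23% in the other libraries, which lowers all other values in it, and it had the lowest value of 9 of the 10 members. The lowest squamous and skeletal muscle sums, 540.7 and 224.2 TPM, were also in this library. Whether dilution accounts for all of its low values was not tested. Results are therefore also given as ratios within a library, after median-of-ratios scaling (factors from 0.786 to 1.13) and without that library.

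All 10 genes lie on chromosome 3 (mm10; GENCODE M21), while Tnfrsf1a lies on chromosome 6. In order along the chromosome, S100a1, S100a13, S100a14, S100a16, S100a4, S100a6, S100a8 and S100a9 fall within 184.7 kb, and S100a11 and S100a10 lie together a further 2825 kb away. S100a8 (ENSMUSG00000056054; chr3:90668978-90670035, plus strand) and S100a9 (ENSMUSG00000056071; chr3:90692632-90695721, minus strand) are neighbours in this order, 22.6 kb apart. S100a4 (ENSMUSG00000001020; chr3:90603771-90606045, plus strand) lies 6.84 kb before S100a6.

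The promoters of the 3 members that departed from the rest of the family are shown, as 250 bases before and 50 after the RefSeq start site (GRCm38.p6). Capitals mark matches on either strand to any of 5 motifs, and adjoining or overlapping matches run together. The TATA box was searched as the letters TATAAA. The site of C/EBP factors, which drive myeloid genes, was searched as TTGCNNAA. The AP-1 site was searched as TGANTCA. The site of the myeloid factor PU.1 was searched as GAGGAA, and the NF-κB consensus is given by its name alone. They are S100a8, chr3:90668821-90669120, plus strand; S100a9, chr3:90695672-90695971, minus strand; and S100a4, chr3:90603520-90603819, plus strand.
S100a8: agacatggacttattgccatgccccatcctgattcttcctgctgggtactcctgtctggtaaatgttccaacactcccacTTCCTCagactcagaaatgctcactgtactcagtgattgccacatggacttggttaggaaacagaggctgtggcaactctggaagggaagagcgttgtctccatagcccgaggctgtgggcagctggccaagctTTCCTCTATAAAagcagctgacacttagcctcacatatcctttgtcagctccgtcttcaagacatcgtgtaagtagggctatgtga
S100a9: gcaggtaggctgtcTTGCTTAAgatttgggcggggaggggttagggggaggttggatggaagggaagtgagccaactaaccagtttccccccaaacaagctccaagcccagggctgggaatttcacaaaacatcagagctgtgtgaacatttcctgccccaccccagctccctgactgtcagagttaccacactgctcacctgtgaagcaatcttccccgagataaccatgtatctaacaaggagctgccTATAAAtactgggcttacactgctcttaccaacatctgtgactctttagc
S100a4: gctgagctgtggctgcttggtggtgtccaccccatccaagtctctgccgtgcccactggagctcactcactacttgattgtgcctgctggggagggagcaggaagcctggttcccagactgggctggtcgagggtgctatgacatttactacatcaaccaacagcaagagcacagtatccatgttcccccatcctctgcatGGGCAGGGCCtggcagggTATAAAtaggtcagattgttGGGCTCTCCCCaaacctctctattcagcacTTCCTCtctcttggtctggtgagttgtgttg
The letters TATAAA were found in these 3 promoters and in none of the other 5 members with a promoter sequence (S100a1, S100a6, S100a11, S100a13 and S100a16; 8 of 10 matched). Of 32817 mouse promoters of the same length, 13.6% held them. In S100a8 the match begins 30 bases before the RefSeq start site and in S100a4 31 bases before it. The only S100a8 transcript with a value starts upstream of the match, at 90668978, so the match lies within the span of that transcript. In S100a9 the match begins at the RefSeq start site itself, at 90695721, and the more abundant S100a9 transcript starts downstream of it at 90695711. The C/EBP letters were in S100a9 among these 8 members (10.8% of all promoters) and the PU.1 letters in S100a4, S100a8, S100a11 and S100a16 (28.3%). The NF-κB letters, held by 50.8% of all promoters, were in 6 members, though not in S100a8 or S100a9. The promoters of S100a1 and S100a13 overlap on opposite strands and share these NF-κB sites. The AP-1 letters were in S100a11 and S100a16 (7.81%). For S100a16 a further promoter, chr3:90540896-90541195, was searched, and its AP-1 letters were in that one only. The main S100a16 transcript, ENSMUST00000098911, starts in the other.

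The family spanned more than 2 orders of magnitude in level. S100a6 (calcyclin) led at 2324 to 3151 TPM and ranked 28 among all genes by its wild-type mean. S100a10, the annexin A2 partner, followed at 657.8 to 998.1 TPM, then S100a11 at 425.9 to 733.5 TPM and the epithelial S100a14 at 225.8 to 447.3 TPM. S100a16 (220.7 to 348.4 TPM) and S100a1 (209.9 to 318.8 TPM) were not separated, with S100a16 above in 4 of 6 libraries. S100a4 (97.1 to 171.7 TPM) and S100a13 (52.8 to 88.3 TPM) came next. S100a9 and S100a8 were the least abundant, with means of 17.3 and 17.2 TPM over the 6 libraries, and their order differed between libraries. Every other neighbouring pair kept its order in 6 of 6 libraries. Together the 10 genes held 0.544 ± 0.103% of all TPM in wild type and 0.6 ± 0.00849% in knockout (SD, n = 3), and S100a6 alone made up 49.3 to 54.7% of the family.

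**Figure D1:**
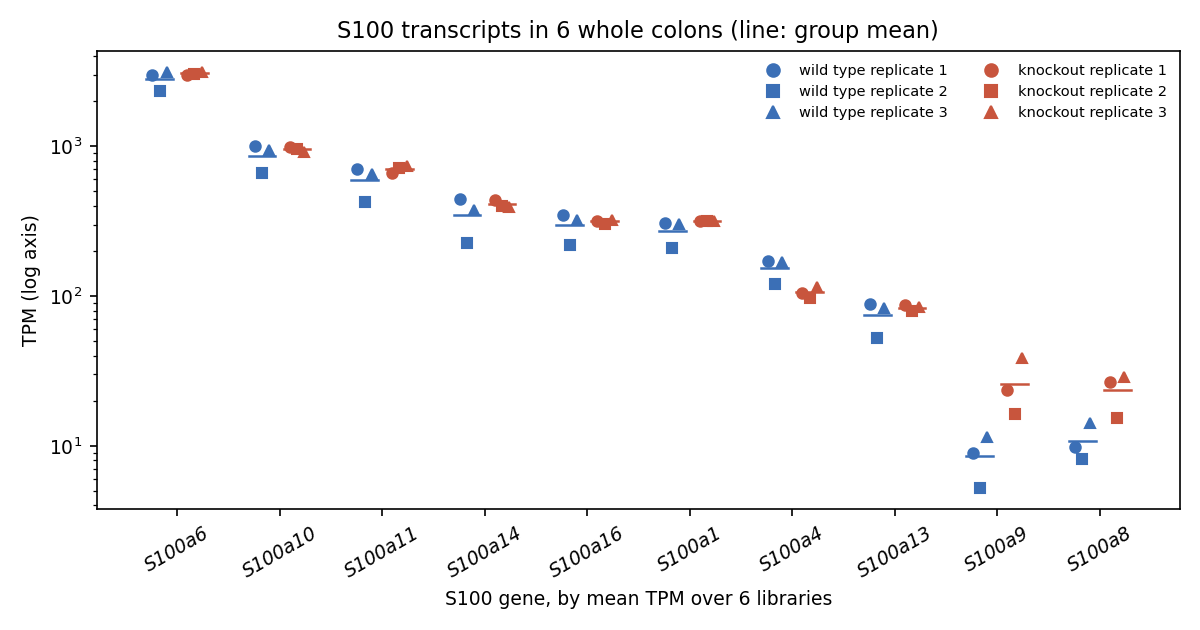
TPM of each S100 gene in each library on a log axis, with wild type in blue, knockout in red, symbols for replicates and lines for group means. S100a8 and S100a9 are higher in the 3 knockout libraries, S100a4 is lower, and wild-type replicate 2 is the lowest library for 9 genes.

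Calprotectin transcripts were higher in the knockout colon. S100a8 was at 9.86, 8.15 and 14.2 TPM in wild-type replicates 1, 2 and 3 and at 26.6, 15.3 and 28.9 TPM in the knockout replicates. The lowest knockout value lay just above the highest wild-type value, so the groups were separate by a narrow margin. Means were 10.7 ± 3.11 and 23.6 ± 7.28 TPM (SD, n = 3). S100a9 was at 8.91, 5.23 and 11.4 TPM in wild type, compared with 23.5, 16.4 and 38.3 TPM in knockout. Again every knockout library was above every wild-type library, and the means were 8.52 ± 3.11 and 26.1 ± 11.2 TPM. Log2 fold changes of TPM + 0.5, a scale on which low genes change by less than in TPM, were 1.09 ± 0.25 for S100a8 and 1.54 ± 0.28 for S100a9 (log2 ± SE, limma).

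These differences kept their direction when wild-type replicate 2 was set aside, at 0.92 ± 0.28 for S100a8 and 1.24 ± 0.31 for S100a9, and after scaling, at 1.06 ± 0.21 and 1.51 ± 0.26. Of the 10 members, 1 was called at a Benjamini-Hochberg adjusted p below 0.05 in limma over 14248 genes, where 0.267% of all genes were called in either direction 0.0912% as higher and 0.175% as lower. That member was S100a9, and since the pair was chosen for this contrast the count supports nothing. S100a9 was not called after scaling (0 of 10 members, background 0.0421%) or without wild-type replicate 2 (0 of 10, background 0.14%). S100a8, S100a9 and S100a1 had no overlap between the groups with knockout higher, and S100a4 none with knockout lower. Over all genes tested, 3.17% were higher and 1.82% lower without overlap, 4.98% in all.

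Ratios within a library do not depend on scaling. Per 1000 TPM of the 8 other members, S100a8 and S100a9 together made up 3.09, 3.16 and 4.28 TPM in wild type, compared with 8.5, 5.35 and 11.1 TPM in knockout. Wild-type replicate 2 did not stand apart on this ratio. The means were 3.51 ± 0.669 and 8.33 ± 2.9 (SD, n = 3), a ratio of 2.37. In TPM as deposited, replicate 2 was lowest and replicate 3 highest for both subunits in each genotype. Per 1000 TPM of S100a1, the wild-type order differed: S100a8 was at 32.2, 38.8 and 46.7, lowest in replicate 1, and S100a9 at 29.1, 24.9 and 37.6, lowest in replicate 2. Pearson's r between their log2 values was 0.97 over the 6 libraries, which includes the genotype difference they share.

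The ratio of S100a9 to S100a8 was 0.904, 0.642 and 0.806 in wild type and 0.882, 1.07 and 1.33 in knockout. Its means were 0.784 ± 0.132 and 1.09 ± 0.223 (SD, n = 3), and knockout replicate 1 lay inside the wild-type range, so the balance of the subunits overlapped between genotypes. S100a8 was read from a single transcript with a value. S100a9 had a pair of them that differ in their start: ENSMUST00000069960 carried 77.3 to 90.3% of its TPM and ENSMUST00000117167 the rest. Both end at the same base and have 3 exons, so their separate values are uncertain.

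**Figure D2:**
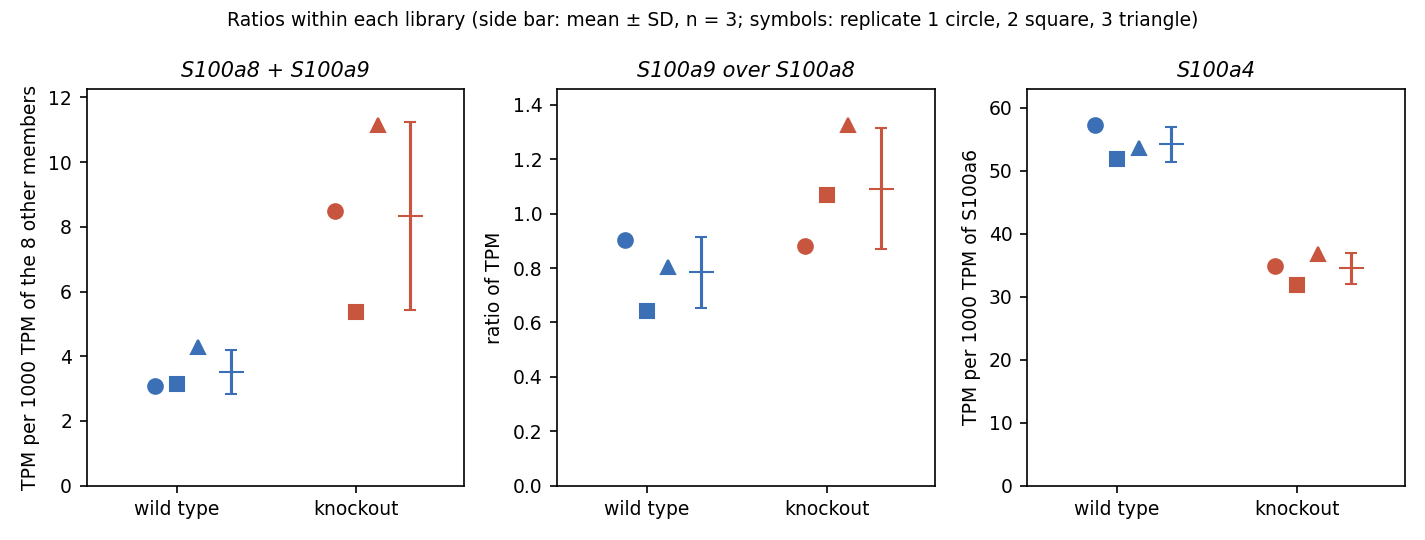
Ratios of TPM within each library for wild type (blue) and knockout (red), with mean ± SD at the side (n = 3). Calprotectin per 1000 TPM of the 8 other members is 3.09 to 4.28 in wild type and 5.35 to 11.1 in knockout, the S100a9 to S100a8 ratio overlaps, and S100a4 per 1000 TPM of S100a6 is 51.8 to 57.3 against 31.9 to 36.7.

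S100a4 went the other way. This gene, also known as metastasin, is expressed by fibroblasts, macrophages and lymphocytes, and its product binds non-muscle myosin and promotes cell movement. It was at 171.7, 120.4 and 167.7 TPM in wild type, compared with 104.4, 97.1 and 115.8 TPM in knockout. The highest knockout library was just below wild-type replicate 2, the library whose values were lowered by other transcripts. Means were 153.3 ± 28.5 and 105.7 ± 9.43 TPM (SD, n = 3), with a log2 fold change of −0.52 ± 0.20 (SE, limma). The standard error was 0.06 after scaling, where the change was −0.55, and 0.10 without wild-type replicate 2, where it was −0.68.

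Against its neighbour S100a6, the separation was wider. S100a4 was at 57.3, 51.8 and 53.6 TPM per 1000 TPM of S100a6 in wild type and at 34.9, 31.9 and 36.7 in knockout. Wild-type replicate 2 lay with the other wild-type libraries, and the means of 54.2 ± 2.79 and 34.5 ± 2.47 differed by far more than the spread within a genotype. Against S100a1 the values were 552.8 to 573.4 per 1000 TPM in wild type and 307.6 to 366.5 in knockout. S100a4 was not called in limma as deposited, after median-of-ratios scaling or without wild-type replicate 2, and was called after quantile normalization.

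Of the cells that express S100a4, fibroblasts and macrophages were read beside it by their markers, and lymphocytes were not. None of 12 fibroblast markers and none of 11 tested monocyte and macrophage markers passed the test, with median log2 fold changes of −0.14 and −0.05, against 0.02 over all 14248 genes. Values were negative for 10 of the 12 and 9 of the 11, where 55.7% of all genes were positive. Without wild-type replicate 2 the medians were −0.26 and −0.27, against −0.13 over all genes. Summed fibroblast markers were at 775.5 to 1063 TPM in wild type, compared with 681.7 to 1009 TPM in knockout, and summed macrophage markers at 205.7 to 315.1 and 191.4 to 313.1 TPM, so both overlapped. The collagen gene Col3a1 had 253 ± 42.8 and 209.4 ± 43.2 TPM, the matrix gene Fbln1 20.6 ± 1.88 and 25.2 ± 3.85 TPM (limma adjusted p = 1 for each). The monocyte receptor Ccr2 had 2.41 ± 0.528 and 1.79 ± 0.496 TPM, and Csf1r, the receptor for macrophage colony-stimulating factor, 9.59 ± 2.13 and 8.07 ± 2.08 TPM (adjusted p = 1 for each). Per 1000 TPM of the fibroblast proteoglycan Dcn, S100a4 was at 543.2 to 597.4 in wild type and 404.2 to 504.4 in knockout. Per 1000 TPM of the macrophage lysozyme Lyz2 it was at 867.9 to 991.8 and 607.9 to 865.1, the second of these with a gap much smaller than the spread in knockout. Other markers differed in this. Set against Fbln1, S100a4 also separated the groups, but set against Col3a1, Ccr2 or Csf1r it overlapped, with knockout replicate 2 inside the wild-type range. The part of these cells in the S100a4 values was not tested.

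The other 7 members had log2 fold changes of 0.28 or less, and each was lowest in wild-type replicate 2. S100a6 was at 2998, 2324 and 3132 TPM in wild type, compared with 2988, 3047 and 3151 TPM in knockout. S100a10 was at 998.1, 657.8 and 941.4 TPM and at 985, 958.6 and 913.2 TPM, so every knockout library lay inside the wild-type range. S100a11, the annexin A1 partner, was at 704.6, 425.9 and 648.9 TPM and at 662.6, 714.8 and 733.5 TPM. In each of these genes the wild-type spread came mostly from replicate 2.

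S100a1, best known from heart and skeletal muscle, was at 306, 209.9 and 303.4 TPM in wild type, compared with 318.8, 315.6 and 315.9 TPM in knockout. The groups did not overlap, although the highest wild-type and the lowest knockout library differed by less than the spread in wild type. Per 1000 TPM of S100a6 the gene was at 90.3 to 102.1 in wild type and 100.3 to 106.7 in knockout, which overlap. Summed skeletal muscle markers were at 3767, 224.2 and 807.3 TPM in wild type, compared with 1426, 3812 and 1987 TPM in knockout. The part of muscle in the S100a1 values was not tested.

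S100a13, which takes part in the release of fibroblast growth factor 1, was at 88.3, 52.8 and 83.7 TPM in wild type, compared with 87.4, 79.6 and 83.9 TPM in knockout. S100a14, an epithelial member, was at 447.3, 225.8 and 376.4 TPM and at 436.1, 398.8 and 390.6 TPM. Its transcripts ENSMUST00000167598 and ENSMUST00000164481 shared it, at 56.2 to 59.5% and 40.5 to 43.8% of its TPM, in every library. S100a16 was at 348.4, 220.7 and 322 TPM and at 317.7, 302.7 and 324.3 TPM, with 84.3 to 90.6% in ENSMUST00000098911 of its 8 transcripts. The knockout libraries of these 3 genes all lay inside the wild-type range.

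The log2 fold changes of these 7 genes were 0.11 to 0.28 as deposited and 0.08 to 0.25 after scaling. They were −0.09 to 0.06 without wild-type replicate 2, against −0.13 for the median gene, and −0.02 to 0.15 after rescaling over transcripts with a gene, against −0.10 for the median gene. Pearson's r between any pair of the 7 was 0.90 to 0.99 over the 6 libraries as deposited and 0.16 to 0.97 after scaling. These correlations share the dilution of wild-type replicate 2.

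**Figure D3:**
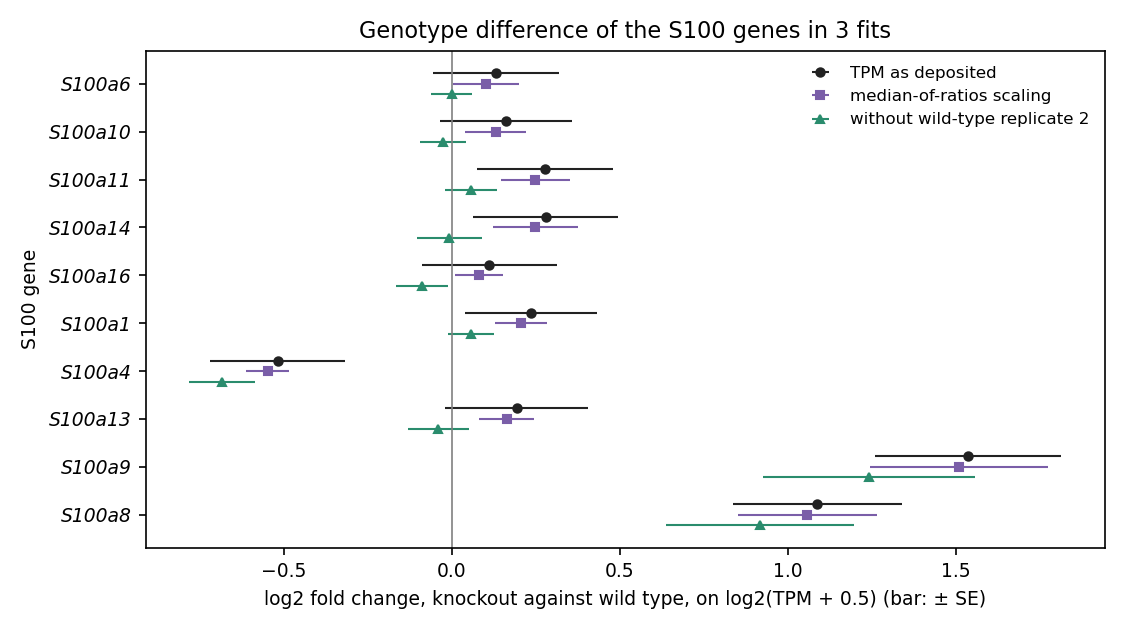
Log2 fold change of each S100 gene, knockout against wild type, with SE bars, for TPM as deposited (circles), after median-of-ratios scaling (squares) and without wild-type replicate 2 (triangles). S100a8 and S100a9 stay between 0.92 and 1.54, S100a4 between −0.68 and −0.52, and the other 7 genes between −0.09 and 0.28.

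Along the chromosome, S100a8 (log2 fold change 1.09) and S100a9 (1.54) are adjacent, and S100a4 (−0.52) follows S100a3 (−1.17). S100a6 (0.13) lies between S100a4 and S100a8. S100a7a, between S100a6 and S100a8, was at 2.19 TPM on average in wild type and 2.36 TPM in knockout. S100a3, which lies just before S100a4 and is known from the cuticle of the hair shaft, was at 20, 3.68 and 14.3 TPM in wild type, compared with 2.7, 4.92 and 5.9 TPM in knockout. Its groups overlapped because wild-type replicate 2 lay among the knockout libraries, and it did not pass (log2 change −1.17 ± 0.37 SE, limma adjusted p = 0.331; −1.86 without wild-type replicate 2, adjusted p = 0.117). S100a2 and S100a5 were too low to test.

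**Figure D4:**
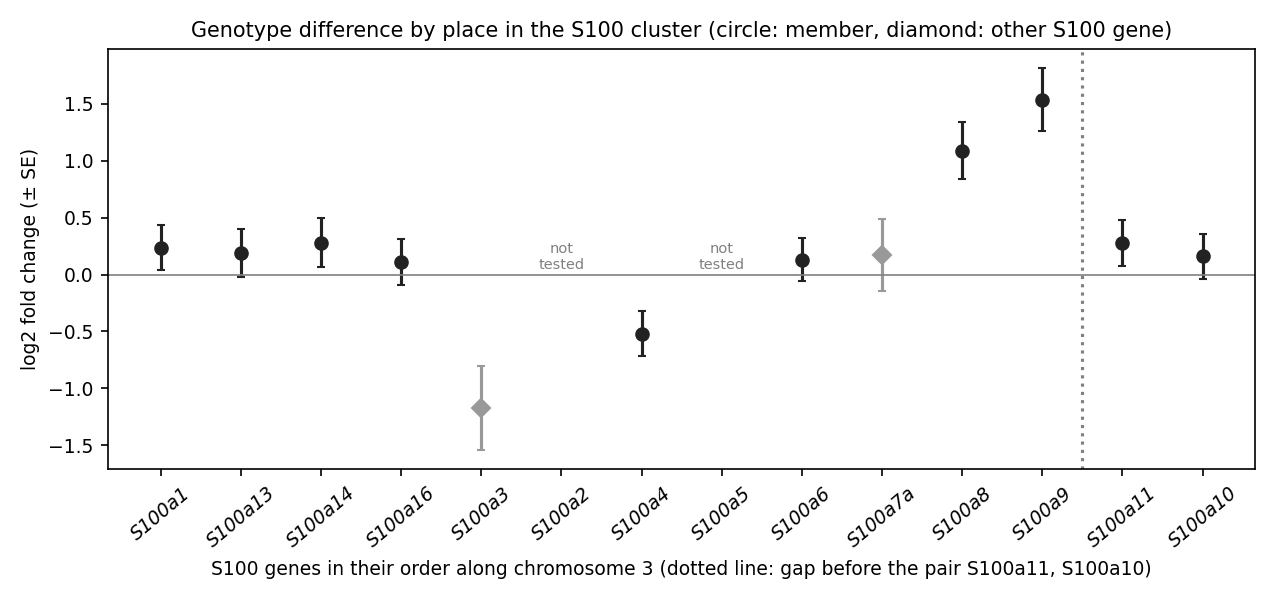
Log2 fold change with SE of the S100 genes of chromosome 3, placed in their order along it, with the 10 members as circles and other S100 genes as diamonds. S100a8 at 1.09 and S100a9 at 1.54 are adjacent, and S100a3 at −1.17 and S100a4 at −0.52 have positive values on either side of them.

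Outside chromosome 3, S100g, the calcium-binding calbindin of absorptive epithelium on the X chromosome, had 48 ± 8.21 TPM in wild type, compared with 36.3 ± 8.33 TPM in knockout (SD, n = 3; limma adjusted p = 1). S100b, a marker of enteric glia on chromosome 10, averaged 2.1 and 2.43 TPM. Of the 8 other S100 genes listed, 7 were in the table, 4 were tested and 0 passed (median log2 fold change −0.12).

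Fused S100 genes join an S100 domain to long repeats and serve the cornified envelope of skin and hair. Of 7 listed, 6 were tested, 0 rose and 1 fell. Tchh (trichohyalin of the hair follicle) was at 15.8, 2.52 and 9.81 TPM in wild type, compared with 2.5, 1.01 and 2.47 TPM in knockout. It fell by 1.75 ± 0.39 on the log2 scale (SE; limma, adjusted p = 0.0441) and did not pass after scaling (adjusted p = 0.349) or without wild-type replicate 2 (0.0808). Flg (filaggrin) was at 180.8, 41.9 and 92.9 TPM in the wild-type mice and 196.1, 99.8 and 214.2 TPM in the knockouts. The list's median was 0.60 and −0.004 without wild-type replicate 2, against 0.02 and −0.13 over all genes.

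Receptors of released S100 proteins showed no call. Of 10 tested, 0 passed in either direction (limma; median log2 fold change 0.13). Tlr4, the signalling receptor for calprotectin, had 8.44 ± 1.12 TPM in wild type, compared with 10.8 ± 2.54 TPM in knockout (adjusted p = 1), and Bsg (basigin) 474.6 ± 90.7 and 561.5 ± 11.3 TPM (adjusted p = 1). Ager, the receptor RAGE, was at 0.755 to 1.54 TPM in wild type, compared with 0.56 to 1.4 TPM in knockout.

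Partners inside the cell were likewise without a call, 0 of 16 (median 0.14). S100a10 and its partner Anxa2 kept a steady ratio of 1.27 ± 0.0452 in wild type and 1.25 ± 0.0323 in knockout (SD, n = 3), with overlapping ranges. The ratio of S100a11 to Anxa1 was 1.06 ± 0.135 and 1.02 ± 0.135. The partners with the smallest p were Atp2a1, the calcium pump of skeletal muscle, at 78.2, 4.28 and 16.7 TPM in wild type, compared with 30.8, 88.2 and 44.9 TPM in knockout (adjusted p = 0.665), and the calcium channel Ryr1 at 1.83 ± 2.06 and 2.32 ± 0.619 TPM (adjusted p = 1).

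Among inducers and transcription factors of calprotectin, 12 of 20 were tested and 1 rose. Il1f6, which encodes the epithelial cytokine IL-36α, was at 1.73, 0.742 and 1.15 TPM in wild type, compared with 4.59, 2.5 and 5.25 TPM in knockout. Replicate 2 was lowest in each genotype, as for S100a8 and S100a9. Replicate 3 was highest in knockout, as for that pair, but replicate 1 was highest in wild type, unlike them. The log2 change of Il1f6 was 1.42 ± 0.30 (SE, limma adjusted p = 0.03, with 0.248 after scaling and 0.512 without wild-type replicate 2). Tnf was at 0.379 to 0.771 TPM and Il1b at 0.348 to 1.16 TPM in all libraries, too low to test, and Il6, Il17a and Il22 did not exceed 0.104 TPM. Il17f was at 4.28 to 8.42 TPM in wild type and 2.89 to 6.04 TPM in knockout. These overlap, and it was not called (log2 fold change −0.43 ± 0.28 SE). The transcription factor Cebpd had 46.2 ± 11.8 and 67.2 ± 11.4 TPM (limma adjusted p = 0.895) and Nfkb1 28.7 ± 4.27 and 29.6 ± 2.51 TPM (adjusted p = 1).

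Antimicrobial genes of the epithelium gave 1 call among 8 tested. The log2 fold change was positive for 7 and negative for 1, where 55.7% of all genes were positive. The median was 0.43, and 0.24 without wild-type replicate 2, against 0.02 and −0.13 over all genes. Slpi had 63.7 ± 18.1 TPM in wild type and 89.1 ± 12.5 in knockout, and Slc6a14 141.2 ± 29.9 and 177.6 ± 2.3 TPM (SD, n = 3), neither called. Duoxa2, needed for the peroxide-making oxidase Duox2 to mature, rose from 6.33, 4.24 and 6.68 TPM to 15.4, 12.1 and 14.8 TPM (log2 fold change 1.24 ± 0.24 SE, limma adjusted p = 0.0111; 0.00668 after scaling, 0.0863 without wild-type replicate 2). Lcn2, another metal-withholding protein of inflamed gut, was at 5.9, 1.72 and 6.63 TPM in wild type, compared with 5.37, 3.15 and 6.79 TPM in knockout, which overlap. Reg3b and Reg3g did not exceed 0.381 TPM.

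Cell types that could carry calprotectin were read from marker lists. Neutrophils contain S100A8 and S100A9 in large amounts. Many of their listed markers were at or near 0 here, while Ly6g and Ltf were not. Elane did not exceed 0.0464 TPM in any library, Ngp 0.0336, Mpo 0.177, Camp 0.379 and Retnlg 0.0967 TPM, and Cxcr1 was listed at 0 in all 6. Of 20 neutrophil markers, 15 were below 1 TPM in every library and 3 were tested, with 0 calls. Ltf (lactoferrin) was at 5.25, 2.01 and 11.3 TPM in the wild-type mice and 12, 11.7 and 15.8 TPM in the knockouts, without overlap (limma adjusted p = 0.132). Ly6g had 165.3 ± 24.9 and 179.5 ± 6.21 TPM (adjusted p = 1). The list's sum, nearly all of it Ly6g, was 142.3 to 199.5 TPM in wild type, compared with 193.4 to 199.5 TPM in knockout.

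Squamous epithelium also makes S100A8 and S100A9. None of its 22 tested markers passed, with a median log2 fold change of 0.56, against 0.02 over all genes. Without wild-type replicate 2 the median was −0.02, against −0.13 over all genes. The summed markers were at 2062, 540.7 and 1456 TPM in wild type, compared with 1996, 1553 and 1978 TPM in knockout. Lor (loricrin) had 43.9 ± 31.1 and 83.8 ± 12 TPM (adjusted p = 0.161) and Krtdap 224.9 ± 138.5 and 351.2 ± 26.2 TPM (adjusted p = 0.549).

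Colon epithelial markers gave 0 calls of 14, with sums of 12046 to 16819 TPM in wild type, compared with 15150 to 16483 TPM in knockout. The intestinal transcription factor Cdx2 had 8.55 ± 2.14 and 16.1 ± 3.05 TPM (limma adjusted p = 0.159) and Krt20 369.4 ± 51.7 and 447.7 ± 11.7 TPM (adjusted p = 1). The summed adipocyte markers were at 59.6 to 162.5 TPM in wild type, compared with 196.3 to 266.2 TPM in knockout, without overlap, and Cfd (adipsin) rose (31.5 ± 16.7 TPM in wild type, 82.7 ± 12.9 in knockout; limma adjusted p = 0.00817, or 0.286 with scaled values, 0.139 without wild-type replicate 2). It was the 1 call of 8 adipocyte markers. By replicate, the adipocyte sum was 162.5, 59.6 and 125.4 TPM in wild type and 196.3, 237.1 and 266.2 TPM in knockout. Its lowest wild-type and highest knockout libraries were those of S100a8 and S100a9, and its highest wild-type and lowest knockout libraries were not. Skeletal muscle markers had a median log2 fold change of 1.40, with 0 calls of 12. Without wild-type replicate 2 their median was 0.34, against −0.13 over all genes. Smooth muscle and enteric glia had 0 calls of 8 and of 5. The fast myosin Myh4 had 0.259 TPM on average in the wild-type mice and 3.34 in the knockouts (limma adjusted p = 0.0856), the smooth muscle actin Actg2 1538 and 1318 TPM, and the glial factor Sox10 1.97 and 2.35 TPM (adjusted p = 1 for the last pair of genes). The part of these tissues in the S100 values was not tested.

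**Figure D5:**
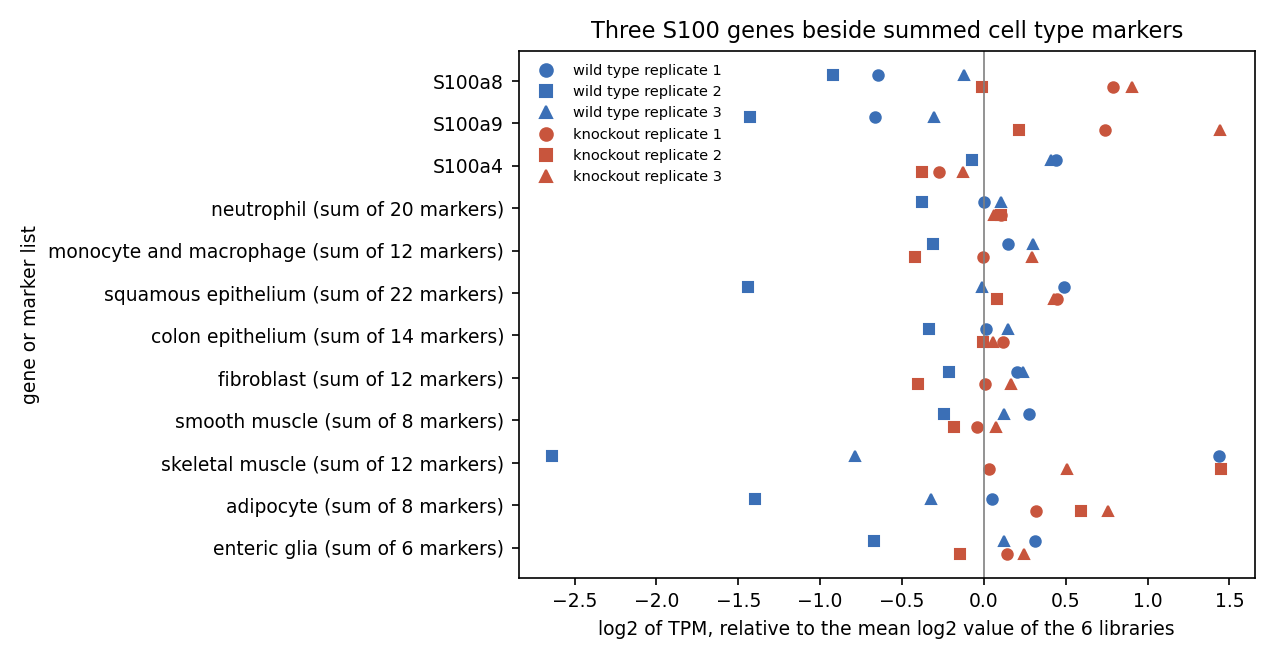
Level of S100a8, S100a9 and S100a4 and of summed cell type markers in each library, as log2 of TPM relative to the mean log2 value of the 6 libraries, with wild type in blue and knockout in red. The knockout libraries are all to the right of the wild-type libraries for S100a8, S100a9 and adipocyte markers and all to the left of them for S100a4. Neutrophil and squamous sums overlap between genotypes.

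The genes whose pattern was most like calprotectin were ranked by Pearson's r between log2(TPM + 0.5) and the mean log2 value of S100a8 and S100a9 over the 6 libraries, among 12054 genes. The first 5 were the clock gene Per1 (r = 0.991), the glycosyltransferase gene Mgat4c (0.986), the sodium channel subunit Scnn1a (0.985), the water channel Aqp4 (0.984) and the phosphatase gene Ptprj (0.983). Per1 was at 6.69, 6.31 and 7.92 TPM in wild type, compared with 11, 8.72 and 11.7 TPM in knockout, and Aqp4 at 8.56, 6.45 and 10.7 TPM and 14.1, 11.7 and 15.7 TPM. After median-of-ratios scaling the first 5 were Zfp574, Ubfd1, Cdx2, Aqp4 and Gcnt2, so Aqp4 was the 1 gene in both rankings. The libraries share the genotype difference and the dilution of wild-type replicate 2, and 127 genes reached an r of 0.9 (95 after scaling), so the ranking is a description over few points. None of the 5 genes ranked as deposited passed the test (limma adjusted p = 0.569 for Aqp4 and 1 for the others).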

How the data were processed

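RNA was measured in 6 whole colons, 3 wild-type and 3 labelled Tnfrsf1a-/-. Libraries were made from polyadenylated RNA with a SMARTer low-input kit, per the labels' protocols. The authors deposited TPM for single transcripts, quantified with kallisto 0.43.1 on build mm10 per the submitters' processing notes; their sleuth results were not used here. The table had 132639 lines, of which 1433 repeated a transcript with the same values. Each of 131206 transcripts was taken once, 43008 without a value and 1380 without a gene were left out, and TPM were summed per symbol to 30330 genes. With no read depth in the files, counting intervals could not be had.

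Log2(TPM + 0.5) was taken for the 14248 genes averaging 1 TPM or more and compared between genotypes with limma 3.58.1 in R 4.3.3 (variance trend, Benjamini-Hochberg adjustment over all genes tested, threshold 0.05). The model was tested on simulated data. The members and the 15 gene lists were chosen with earlier results of these data known. Each list is described by its genes past the threshold (if none, by the 2 lowest p) and by genes that define a cell type; further listed genes were added after their values were seen. The values of 1 gene that this rule names are not reported here. The 5 genes most like calprotectin needed a mean of 2 TPM, predicted genes and immunoglobulin segments aside. Positions are from GENCODE M21 and promoters from RefSeq (GRCm38.p6). Alternatives were other pseudocounts, filters, scalings and variance settings, the replicate number as a block, and each library left out in turn.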

Additional observations from a re-analysis of the deposited data

How the results depend on the processing

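Over 16 alternatives, S100a9 and S100a8 kept a positive and S100a4 a negative log2 fold change, with ranges of 1.22 to 1.82, 0.92 to 1.37 and −0.68 to −0.43. S100a9 was called in 11 of the 16, S100a8 in 6 and S100a4 in 1, and the 7 other members in 0. Near 0, signs changed: without wild-type replicate 2, S100a6 was at −0.00135, S100a10 at −0.0263, S100a13 at −0.0402, S100a14 at −0.00798 and S100a16 at −0.0895; after quantile normalization S100a6 was at −0.0428, S100a16 at −0.0441 and Ly6g at −0.00800, and after rescaling over transcripts with a gene S100a16 was at −0.0184. Leaving out each library in turn gave up to 0.214 for S100a6, 0.274 for S100a10, 0.328 for S100a13, 0.484 for S100a14 and 0.239 for S100a16. The smooth muscle marker Myh11 ranged from −0.348 to 0.00700 in the same series. The causes were not tested.

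The number of genes called was 38 (13 higher, 25 lower). It was 24 with a pseudocount of 0.1, 2 with no filter on low values, 142 with a filter at 5 TPM, and 83 with robust variance. It was 6 after median-of-ratios scaling (5 higher, 1 lower), 7 after quantile normalization (5 and 2) and 4 after rescaling over transcripts with a gene (3 and 1). Leaving out each library in turn gave 20 to 298 calls, the fewest without wild-type replicate 2 and the most without wild-type replicate 1. With the replicate number as a block, 71 genes were called, S100a8 and S100a9 among them. Deviations of same-numbered libraries correlated weakly, at 0.052, 0.132 and 0.183. Each wild-type library correlated best with its own number, as did knockout replicates 2 and 3. Knockout replicate 1 correlated better with wild-type replicate 3, at 0.098. These few values do not settle whether the numbers pair the mice. Low genes such as the cytokines are limited by unknown depth.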
